A study of Mus musculus with 6 samples.

Results

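The complement genes described here are 9 of the 32285 features counted in each library: C1qa, C1qb and C1qc, which encode the 3 chains of C1q; C1s1, a serine protease of the C1 complex; C4b and C3, the central components; C3ar1 and C5ar1, the receptors for the fragments C3a and C5a; and Serping1, the C1 inhibitor. They were chosen as a named list of the classical pathway and its receptors, and a further 47 complement genes were counted beside them. The libraries came from a photothrombotic (PT) cortical lesion of mouse, in which light and a photosensitive dye close local vessels. Nuclei of dissected lesions were profiled by 3' single-nucleus RNA sequencing at 7 and 21 days post injury (dpi), in 3 conditions. Ctrl mice were wild type, with no treatment named in the labels. ADWA11 mice were wild type and received ADWA11, an antibody that blocks the integrin αvβ8, which releases active TGFβ. cKO mice carried Col1a2(creER) and floxed Tgfbr2, so that tamoxifen, given before and through the injury, could delete the type II TGFβ receptor in cells that use the Col1a2 promoter, mainly fibroblasts. The labels give the Ctrl and ADWA11 mice no Cre or floxed allele and the Ctrl and cKO mice no antibody. The study's methods describe controls of such strains as tamoxifen-induced where relevant, without saying which kind these Ctrl mice were. Each of the 6 libraries pooled the lesions of 2 adult mice, 1 male and 1 female, so every group had 1 library and no comparison has a replicate check. All differences below compare those libraries, and all intervals are 95% intervals for counting error alone.

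Complement is a protein cascade of innate immunity. C1q binds antibodies, dying cells or other surfaces and activates C1r and C1s, which cleave C4 and C2; the resulting convertase cleaves C3, whose fragments coat targets and, with C5a, act on receptors of myeloid cells. In the brain, C1q is made mainly by microglia and macrophages, C4 by glia and C3 by reactive astrocytes among others, and the pathway is known for its part in synapse removal and in the response to injury.

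The C1q genes lie side by side on the minus strand of chromosome 4 (GRCm38), C1qa at chr4:136895917-136898803, C1qc at chr4:136889804-136893065 and C1qb at chr4:136880129-136886187, with 2851 bases between C1qa and C1qc and 3616 bases between C1qc and C1qb. The other members were also on minus strands, C1s1 at chr6:124530345-124542359, C4b at chr17:34728380-34743882, C3 at chr17:57203970-57228136, C3ar1 at chr6:122847138-122856161, C5ar1 at chr7:16246743-16259540 and Serping1 at chr2:84765387-84775444. C4b has a near-identical neighbour, C4a, 65.209 kb away, and C1s1 has C1s2 82.265 kb away, so that reads shared with these copies make their counts less certain. Because the C1q chains were high in the same cell groups, the promoters of those matched in the RefSeq table (GRCm38.p6) are printed, 5′ to 3′ on the minus strand, C1qb from chr4:136886151-136886450 and C1qc from chr4:136892865-136893164. Capitals mark the letters GAGGAA, the core of the sequence bound by PU.1, a transcription factor of myeloid cells, or their reverse complement.
C1qb: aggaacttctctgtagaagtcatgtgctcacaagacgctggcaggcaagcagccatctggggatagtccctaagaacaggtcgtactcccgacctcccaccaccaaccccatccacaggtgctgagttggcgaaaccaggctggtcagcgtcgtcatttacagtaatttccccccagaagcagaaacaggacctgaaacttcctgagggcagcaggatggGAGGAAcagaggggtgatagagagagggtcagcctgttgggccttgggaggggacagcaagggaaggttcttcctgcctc
C1qc: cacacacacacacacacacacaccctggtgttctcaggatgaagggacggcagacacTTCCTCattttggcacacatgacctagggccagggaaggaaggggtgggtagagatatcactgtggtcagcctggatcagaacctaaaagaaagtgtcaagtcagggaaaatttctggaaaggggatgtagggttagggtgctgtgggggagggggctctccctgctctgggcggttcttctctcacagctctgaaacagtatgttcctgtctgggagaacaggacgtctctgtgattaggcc
GAGGAA was found at position -30 from the C1qb start on the printed strand and at position -193 from the C1qc start on the other strand. The same letters occur on either strand in 28.3% of 32817 promoter windows of this length, so the match is a description only. Of the 9 members, 6 had a window in the table. The letters TGACTCA, bound by AP-1 factors and present in 5.20% of windows, were found at position -22 in C3ar1. A search was also made for GGGAA, which occurs in 62.7% of windows and is part of sites bound by NF-κB. The C3 window held none of these sets of letters.

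The libraries held 7205 to 14246 barcodes and 64798965 to 140310354 unique molecular identifiers (UMIs), and 61917 of 67360 nuclei were kept. Cell groups were rebuilt by clustering without the complement genes and named by markers: 6005 nuclei were microglia, 10634 macrophages, 11406 fibroblasts and 2970 astrocytes. Sall1, a microglial transcription factor, was at 117 CPM (a gene's UMIs scaled to 1000000 non-mitochondrial UMIs of the group) in microglia and 3.13 CPM in macrophages, whereas Mrc1, a macrophage receptor, was at 121 and 958 CPM. Col1a1 was at 1288 CPM in fibroblasts. These genes were among the naming markers, and clusters were named macrophages only with Sall1 under 0.1 of the microglial level. The values therefore describe the named groups and do not check the names. Composition differed strongly between libraries. Neurons made up 55.8% of nuclei in the cKO library at 7 dpi and 0.0806% to 11.6% in the others, fibroblasts 2.81% and 7.28% in the cKO libraries against 19.3% to 29.2% in the others, and microglia 0.603% and 0.483% in the ADWA11 libraries (66 and 60 nuclei) against 9.07% to 21.4% in the others. These shares are of nuclei named microglia and do not measure a loss of them, because myeloid sub-clusters 2, 4 and 5 stayed unnamed with Sall1 at 27.2, 33.7 and 21.7 CPM, between the levels of microglia and macrophages. They held 2595, 812 and 110 nuclei of the ADWA11 library at 7 dpi and 108, 45 and 1104 of that at 21 dpi. The fibroblast shares leave out an unnamed cluster of 2229 nuclei led by Trpm3. Its Pdgfra, a fibroblast marker, was at 248 CPM against 262 CPM in fibroblasts, and its Col1a1 at 292 CPM. At 21 dpi it held 422 nuclei of cKO, beside 479 named fibroblasts, and 668 of Ctrl, beside 3820. Over all libraries it held 10.3% of C1s1 and 9.57% of Serping1 UMIs. Pairs of libraries shared 21 to 61 barcode sequences. In fibroblasts, Tgfbr2 was at 318, 248 and 243 CPM in the Ctrl, ADWA11 and cKO libraries at 7 dpi, and then 227, 190 and 191 CPM at 21 dpi, which does not check the deletion, because 3' counts need not cover the floxed exon.

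Over whole libraries, complement RNA was present from 7 dpi, and C3, C4b, C1s1 and Serping1 were higher at 21 dpi in each condition, while C1q was higher mainly in cKO. C1q summed over its 3 chains was at 376, 394 and 164 CPM in the Ctrl, ADWA11 and cKO libraries at 7 dpi, and then 322, 418 and 419 CPM at 21 dpi. C3 was at 1.74, 1.91 and 0.814 CPM at 7 dpi and 44.0, 69.9 and 16.5 CPM at 21 dpi. Every 21 dpi library was thus above every 7 dpi library for C3, while the cKO library at 7 dpi stood apart for C1q. C4b was at 47.3, 30.8 and 31.6 CPM and then 99.5, 69.7 and 148 CPM in the same order. Serping1 was at 20.6, 24.3 and 2.62 CPM and then 72.8, 81.9 and 41.2 CPM. C1s1 was at 2.63, 4.28 and 1.28 CPM and then 18.6, 34.2 and 8.57 CPM. For these genes too, each condition had more RNA at 21 than at 7 dpi. The receptors were higher at 21 dpi in cKO but lower in Ctrl and ADWA11: C3ar1 was at 59.5, 85.0 and 13.7 CPM at 7 dpi and 51.2, 78.6 and 39.9 CPM at 21 dpi, and C5ar1 at 11.9, 27.2 and 3.19 CPM and then 10.4, 20.9 and 9.04 CPM. At the level of a whole library, fewer cells of a type and less RNA per cell cannot be told apart.

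**Figure D1:**
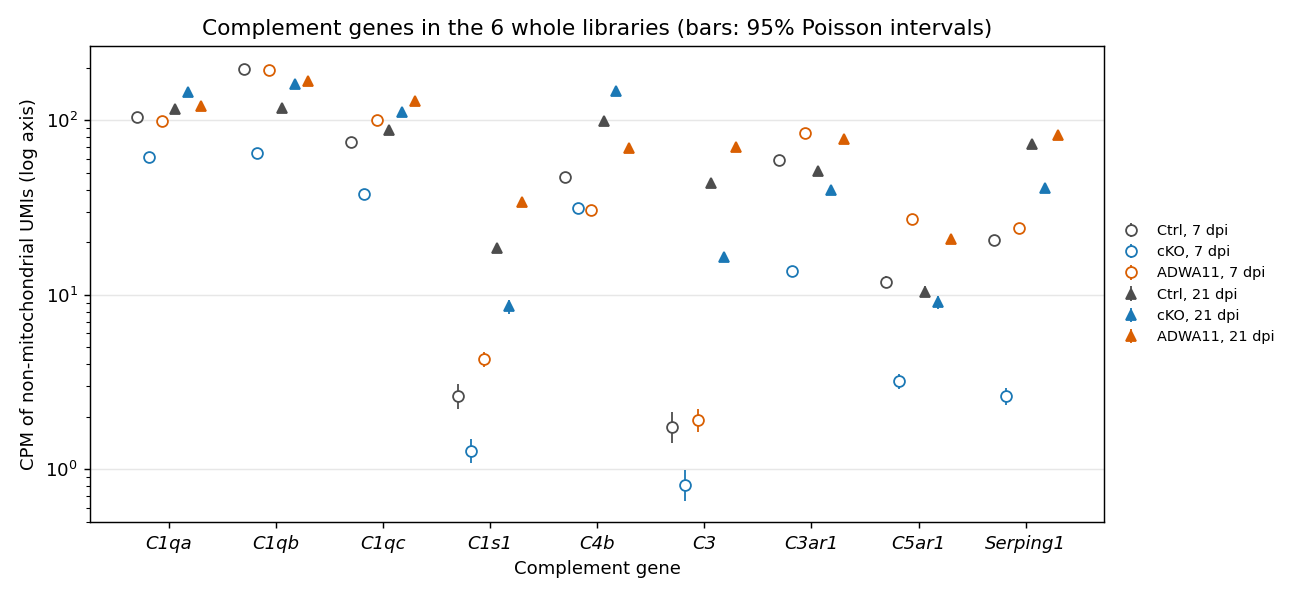
Level in CPM (y axis, log scale) of each of the 9 complement genes (x axis) in the 6 libraries, with 95% Poisson intervals as bars. Colour gives the condition, and marker shape and fill give the day. C3 lies between 0.814 and 1.91 CPM in the 3 libraries at 7 dpi and between 16.5 and 69.9 CPM at 21 dpi, whereas the C1q chains are lowest in the cKO library at 7 dpi.

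Between the Ctrl libraries, 4 of 9 members were past 2-fold, all higher at 21 dpi, where 21.0% of all genes with at least 30 UMIs were past 2-fold: C3 (log2 ratio 4.66, interval 4.37 to 4.97), C1s1 (2.82, 2.57 to 3.08), Serping1 (1.82, 1.73 to 1.91) and C4b (1.07, 1.01 to 1.14). In the cKO library at 7 dpi, 6 of 9 members were past 2-fold below Ctrl, where 50% of all genes were past 2-fold in either direction; the median log2 ratio was -1.10 for the members and -0.33 for all genes. With neurons, astrocytes, oligodendrocytes and their precursors (neural classes) left out of both libraries, none of the 9 remained past 2-fold below Ctrl and 3 were past it above, with log2 ratios of 1.73 for C1qa, 1.56 for C1qc and 1.20 for C3. The cKO library at 21 dpi had 2 members past 2-fold, C3 (-1.41, -1.52 to -1.30) and C1s1 (-1.11, -1.27 to -0.96), against a background of 22.8%. Without neural classes C3 was at -0.73 and C1s1 at -0.35, and the C1q chains were past 2-fold above Ctrl instead, at 1.07 to 1.23. The ADWA11 libraries each had 1 member past 2-fold, the receptor C5ar1, higher at 7 dpi (1.19, 1.07 to 1.32; background 10.4%) and at 21 dpi (1.00, 0.87 to 1.13; background 15.4%). The ratio at 21 dpi fell short of 2-fold with all deposited barcodes, with percentiles taken over pooled libraries, by the mean over nuclei and in female nuclei. Both conditions were set against the same Ctrl library at each day, so these comparisons are not independent.

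C1q RNA was highest in microglia and macrophages. Over the 6 libraries, the median level of the 3 chains together was 903 CPM in microglia (range 357 to 1470) and 781 CPM in macrophages (582 to 903), and these ranges overlapped. The lowest microglial value, 357 CPM, is that of ADWA11 at 21 dpi, which rests on 60 nuclei whose markers go against the name, and the Ctrl and cKO libraries ranged from 727 to 1470 CPM. Every other named class was lower by its median, from 356 CPM in T cells to 85.6 CPM in fibroblasts. Any C1q UMI was found in 90.8% of microglia and 88.9% of macrophages, at median depths of 4504 and 4885.5 UMIs per nucleus, but also in 43.5% of T cells, a lymphocyte that should lack the gene, at 2645 UMIs, and in 44.1% of fibroblasts at 7661.5 UMIs. With each nucleus thinned to 2000 UMIs, the shares were 75.0%, 71.1%, 34.3% and 16.4%, so C1q in fibroblasts lay below the T cell background. The proportions of the chains were not the same inside and outside myeloid nuclei: C1qa made up 26.3%, 24.2% and 36.5% of C1q UMIs in all myeloid nuclei of Ctrl, ADWA11 and cKO at 7 dpi and 30.6%, 30.1% and 37.6% in fibroblasts. At 21 dpi the shares of C1qa were 34.0%, 27.3% and 31.6% in myeloid nuclei and 39.2%, 35.0% and 40.4% in fibroblasts. Fibroblasts thus had the larger C1qa share in each library, with counting intervals that overlapped only in cKO at 7 dpi. This was not particular to fibroblasts. Astrocytes also had a larger share than myeloid nuclei in each library, at 32.6% in Ctrl at 7 dpi and 37.6% at 21 dpi. In T cells the share was 30.5% in Ctrl at 7 dpi, but 31.0% in cKO at 7 dpi, below the myeloid nuclei. Myeloid nuclei held 68.8% of all C1q UMIs, and 55.6% to 80.0% in single libraries. In the cKO library at 7 dpi neurons held 28.2%.

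**Figure D2:**
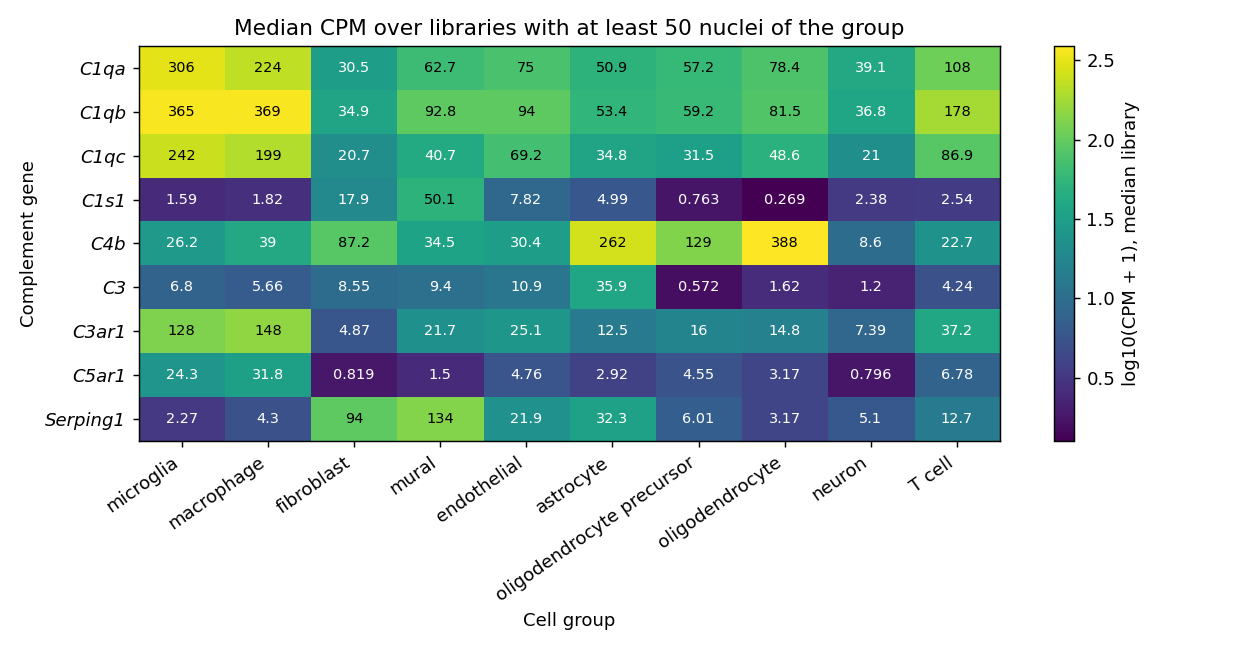
Median level in CPM over the libraries with at least 50 nuclei, for the 9 complement genes (rows) in 10 named cell groups (columns), with the colour on a log scale. The C1q chains and both receptors are highest in microglia and macrophages, C4b is highest in oligodendrocytes (388 CPM) and astrocytes (262 CPM), C3 in astrocytes (35.9 CPM) and Serping1 in mural cells (134 CPM) and fibroblasts (94.0 CPM).

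In microglia, the C1q chains of the cKO library at 7 dpi were above those of Ctrl at 7 dpi, and at 21 dpi the 2 libraries were close. C1qa was at 216, 162 and 554 CPM in Ctrl, ADWA11 and cKO at 7 dpi, and then 399, 80.4 and 395 CPM at 21 dpi. C1qb was at 353, 248 and 560 CPM and then 377, 155 and 449 CPM, and C1qc at 157, 181 and 356 CPM and then 304, 122 and 336 CPM. The cKO library thus led all 6 for each chain at 7 dpi, while both ADWA11 values rest on few nuclei. The log2 ratio of cKO to Ctrl at 7 dpi was 1.36 for C1qa (1.28 to 1.44), 1.18 for C1qc (1.08 to 1.27) and 0.66 for C1qb (0.59 to 0.73), and at 21 dpi -0.01, 0.14 and 0.26. Nuclei were called female on Xist with no Y-linked UMI, and male on the reverse, which separates the 2 mice of a library only roughly. RNA of the other mouse could misassign a nucleus, and 2116 of 8294 nuclei of Ctrl and 1940 of 10594 of cKO at 7 dpi had no call. By this split, the C1q sum at 7 dpi was 781 and 729 CPM in the female and male of Ctrl and 1464 and 1423 CPM in those of cKO. Both cKO values were above both Ctrl values, which is not a replicate check. All values by mouse use this split and have no interval. Across time in Ctrl, C1qa (0.88, 0.80 to 0.97) and C1qc (0.95, 0.85 to 1.05) were higher at 21 dpi, while C1qb differed little (0.09, 0.01 to 0.17). C1qb accordingly made up 48.6% of microglial C1q UMIs in Ctrl at 7 dpi, 34.9% at 21 dpi and 38.1% in cKO at 7 dpi. Composition moved with these values. The summed level of 10 fibroblast markers in microglial nuclei was 509 CPM in Ctrl and 52.6 CPM in cKO at 7 dpi, that of the neuron markers 164 and 941 CPM, and that of the microglial markers 787 and 1205 CPM; their part in the result was not tested.

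Beyond C1q, the microglial comparison of cKO with Ctrl at 7 dpi had C4b (1.64, 1.31 to 1.98) and C3 (1.08, 0.35 to 1.82) past 2-fold, making 4 of the 7 members with enough UMIs, all higher, against 12.8% of all genes. C4b was at 11.5 and 36.0 CPM there, from 113 and 217 UMIs in 1599 and 1685 nuclei, and C3 at 3.07 and 6.47 CPM, from 30 and 39 UMIs. Oligodendrocytes, the class with the highest median C4b, had 53 nuclei in Ctrl and 855 in cKO at 7 dpi. The part of their RNA in the C4b ratio was not tested. Less the oligodendrocyte level, the C3 ratio was 0.66. At 21 dpi none of 8 members was past 2-fold (background 8.18%). From 7 to 21 dpi in Ctrl microglia, 3 of 8 were past 2-fold, all higher, against 12.3%: C3 (2.17, 1.55 to 2.82), Serping1 (2.40, 1.44 to 3.47) and C4b (1.26, 0.90 to 1.61). The C3 level reached there, 13.8 CPM, was below that of T cells (25.8 CPM) and oligodendrocytes (25.2 CPM) of the same library. C4b, at 27.6 CPM, and Serping1, at 6.48 CPM, were likewise no higher than in those T cells, at 32.4 and 19.1 CPM. These T cell levels rest on 358 nuclei, at a median of 2437 UMIs per nucleus against 4733 in the microglia. In ADWA11 microglia none of 7 members was past 2-fold at 7 dpi (background 20.5%), and at 21 dpi 4 of 8 were lower (background 34.8%), namely the C1q chains and C5ar1, with log2 ratios of -2.35 to -1.28, where C5ar1 rests on 2 UMIs in ADWA11. Those 60 nuclei had 30.5 CPM of the microglial markers, against 575 CPM in Ctrl, with 4 of the markers at 0, so that the data go against their name. These ratios depend on how the nuclei were clustered: with the complement genes among the variable genes they were 0.83 for C1qa, 1.13 for C1qb, 2.33 for C1qc and 5.60 for C5ar1, and with log-normalised clustering 0.31 for C1qc and 3.04 for C5ar1. Over all myeloid nuclei, which does not depend on that split, the C1q sum was at 612, 656 and 1257 CPM in Ctrl, ADWA11 and cKO at 7 dpi, and then 902, 717 and 1086 CPM at 21 dpi. The mix of sub-clusters differed there: sub-cluster 0, the microglia, held 38.9%, 1.14% and 73.9% of myeloid nuclei at 7 dpi.

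Macrophages carried C1q at steadier levels. The C1q sum was at 582, 746 and 818 CPM in Ctrl, ADWA11 and cKO at 7 dpi, and then 799, 763 and 903 CPM at 21 dpi. No C1q chain was past 2-fold in any of the 5 comparisons, and the nearest were the Ctrl time comparisons of C1qc (0.99, 0.88 to 1.10) and C1qa (0.91, 0.80 to 1.02). C1qb did not share them (-0.04, -0.12 to 0.04). In cKO at 7 dpi, 1 of 7 members was past 2-fold (background 11%): C4b at 55.5 CPM in 330 macrophages against 21.6 CPM (1.36, 0.96 to 1.75). The cKO value rests on 72 UMIs, of which 5 nuclei held 26.4%, and the ratio was 0.97 in female nuclei. Oligodendrocytes numbered 53 in Ctrl and 855 in cKO there, and the part of their RNA was not tested. At 21 dpi 2 of 9 members were past 2-fold, both lower in cKO (background 9.43%): Serping1 at 5.03 against 15.2 CPM (-1.60, -2.37 to -0.88) and C5ar1 at 18.3 against 40.8 CPM (-1.15, -1.55 to -0.77). These macrophages lay in different sub-clusters: sub-cluster 3 held 531 of 751 in cKO and 624 of 1476 in Ctrl, and sub-cluster 1 held 110 and 531. Over all libraries C5ar1 was at 21.4 CPM in sub-cluster 3 and 37.1 CPM in sub-cluster 1, and the part of this shift was not tested. In the Ctrl time comparison 3 of 9 were past 2-fold, all higher at 21 dpi (background 10.2%): C1s1, C3 and Serping1, from 0.628 to 4.61, 2.24 to 15.5 and 2.87 to 15.2 CPM. In fibroblasts of the Ctrl library at 21 dpi C1s1 and Serping1 were higher, at 23.7 and 105 CPM, and C3 was at 15.8 CPM, within the interval of the macrophages. By point value, each of the 3 levels in macrophages was below that of T cells in the same library, at 11.4 CPM for C1s1, 25.8 CPM for C3 and 19.1 CPM for Serping1. These T cell levels rest on 358 nuclei and few UMIs, so the order is uncertain. T cells were also shallower, at a median of 2437 UMIs per nucleus against 3636 in macrophages. Fibroblast markers summed to 851 CPM in Ctrl and 75.6 CPM in cKO macrophages at 7 dpi, and to 1365 and 84.9 CPM at 21 dpi, and their part in the Serping1 result was not tested.

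C1s1, the protease that C1q activates, was a gene of mural cells and fibroblasts, with median levels of 50.1 and 17.9 CPM. Fibroblasts held 58.6% of its UMIs. In fibroblasts C1s1 was at 5.73, 11.2 and 12 CPM in Ctrl, ADWA11 and cKO at 7 dpi, and then 23.7, 76.6 and 43.6 CPM at 21 dpi. The ADWA11 library at 21 dpi was the highest of the 6, with a log2 ratio to Ctrl of 1.69 (1.56 to 1.82), and both its mice, at 56.5 and 85.3 CPM, were above both Ctrl mice, at 24.9 and 23.3 CPM. The cKO ratio at 21 dpi was 0.88 (0.64 to 1.11), and that at 7 dpi, 1.07 (0.34 to 1.74), rests on 23 UMIs and was -0.20 in female nuclei. Over time in Ctrl fibroblasts it was 2.05 (1.73 to 2.38). The fibroblasts compared lay in different sub-clusters. Sub-cluster 0 held 2.90% of the fibroblast-class nuclei of Ctrl at 7 dpi, 48.8% at 21 dpi and 76.2% in ADWA11 at 21 dpi, sub-cluster 1 held 52.2%, 1.52% and 0.824%, and sub-cluster 4 held 1.30%, 26.1% and 0.756%. Over all libraries C1s1 was at 55.4, 9.14 and 10.4 CPM in these 3 sub-clusters. Within sub-cluster 0 it was at 29.4 CPM in Ctrl and 80.4 CPM in ADWA11 at 21 dpi, and at 10.7 CPM in Ctrl at 7 dpi, from 5 UMIs. At the level of whole libraries C1s1 was lower in cKO, whereas in fibroblasts it was higher in cKO. Fibroblasts made up 2.81% and 7.28% of the nuclei of the cKO libraries, and neurons held 78.6% of the C1s1 UMIs of cKO at 7 dpi; their part in the result was not tested. In astrocytes C1s1 was at 20.3, 28.3 and 5.81 CPM in Ctrl, ADWA11 and cKO at 21 dpi, a cKO ratio of -1.80 (-2.33 to -1.30). Fibroblast markers in these nuclei summed to 1210, 954 and 181 CPM, and their part in the result was not tested.

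C4b, the substrate of C1s, had its highest levels in glia of the oligodendrocyte and astrocyte lineages rather than in myeloid cells. By the median over libraries, oligodendrocytes were at 388 CPM, astrocytes at 262, oligodendrocyte precursors at 129, fibroblasts at 87.2, macrophages at 39.0 and neurons at 8.6 CPM. The ranges of oligodendrocytes, from 81.5 to 607 CPM, and of astrocytes, from 82.5 to 315 CPM, overlapped. A C4b UMI was present in 72.2% of astrocytes, 68.3% of oligodendrocytes and 36.0% of fibroblasts, against 6.29% of T cells, and in 40.6%, 52.4%, 13.1% and 3.91% at 2000 UMIs per nucleus, so each of the 3 classes was above the T cell background. In astrocytes C4b was at 127, 82.5 and 262 CPM in Ctrl, ADWA11 and cKO at 7 dpi, and then 263, 312 and 315 CPM at 21 dpi. The cKO library at 7 dpi was thus at the level of Ctrl at 21 dpi, and below the other 2 libraries at 21 dpi. Its log2 ratio to Ctrl was 1.04 (0.78 to 1.30), as was the Ctrl time ratio (1.04, 0.80 to 1.29), and at 21 dpi the conditions differed by 0.26 (cKO) and 0.25 (ADWA11). Both ratios fell short of 2-fold, at 0.53, with log-normalised clustering, and the cKO ratio was 0.55 in male nuclei. Oligodendrocytes were at 330, 81.5 and 388 CPM at 7 dpi and 597, 189 and 607 CPM at 21 dpi, where the ADWA11 values rest on 70 and 23 nuclei and that of Ctrl at 7 dpi on 53.

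In fibroblasts C4b was at 44.4, 50.1 and 87.4 CPM in Ctrl, ADWA11 and cKO at 7 dpi, and then 87.0, 97.2 and 202 CPM at 21 dpi. The cKO library was the highest at each day, with log2 ratios of 0.98 (0.72 to 1.22) and 1.22 (1.11 to 1.33). The ratio at 21 dpi was 0.95 in male nuclei. At 21 dpi both cKO mice, at 264 and 150 CPM, were above the Ctrl mice, at 95 and 77.6 CPM. Fibroblast sub-cluster 6, which held 60.8% of fibroblast-class nuclei of the cKO library at 21 dpi and few of any other library, had C4b at 222 CPM, Serping1 at 324 CPM and C1s1 at 51.7 CPM in that library. The 10 fibroblast markers summed to 2816 CPM in cKO fibroblasts at 21 dpi against 9189 CPM in Ctrl, and the part of this shift in the C4b and Serping1 results was not tested. Among myeloid nuclei, sub-cluster 7 of the macrophages, led by Cd163, Cbr2 and Clec10a, had C4b at 146 CPM over all libraries, whereas the other myeloid sub-clusters lay between 4.9 and 37.8 CPM.

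C3, on which the pathways converge, was low at 7 dpi and at 21 dpi was highest in astrocytes among the 4 cell groups. In astrocytes it was at 0.833, 4.08 and 6.28 CPM in Ctrl, ADWA11 and cKO at 7 dpi, from 1, 10 and 14 UMIs. At 21 dpi it was at 240, 359 and 65.5 CPM, from 1719, 964 and 485 UMIs. The groups by day did not overlap, and within 21 dpi the cKO library was lowest. The Ctrl time ratio, against a single UMI, was 8.17 on the log2 scale with an interval of 5.69 to 13.48. The cKO ratio at 21 dpi was -1.87 (-2.02 to -1.73) and the ADWA11 ratio 0.58 (0.47 to 0.70). By mouse, female then male, astrocyte C3 was at 246 and 274 CPM in Ctrl, 386 and 340 CPM in ADWA11, and 38.6 and 93.6 CPM in cKO, so that both cKO mice were below, and both ADWA11 mice above, the Ctrl mice. A C3 UMI was found in 48.4%, 63.0% and 23.4% of astrocytes in Ctrl, ADWA11 and cKO at 21 dpi, and in 27.5%, 38.4% and 10.2% at 2000 UMIs per nucleus. T cells of the same libraries had 6.42%, 8.60% and 1.65% (3.52%, 5.49% and 0.803% thinned), with medians of 2437, 2522 and 3384 UMIs against 6559, 5884.5 and 8333 UMIs in astrocytes. Astrocyte nuclei of the cKO library at 21 dpi had 181 CPM of the fibroblast markers against 1210 CPM in Ctrl, and 11524 against 6367 CPM of the astrocyte markers; their part in the C3 result was not tested.

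**Figure D3:**
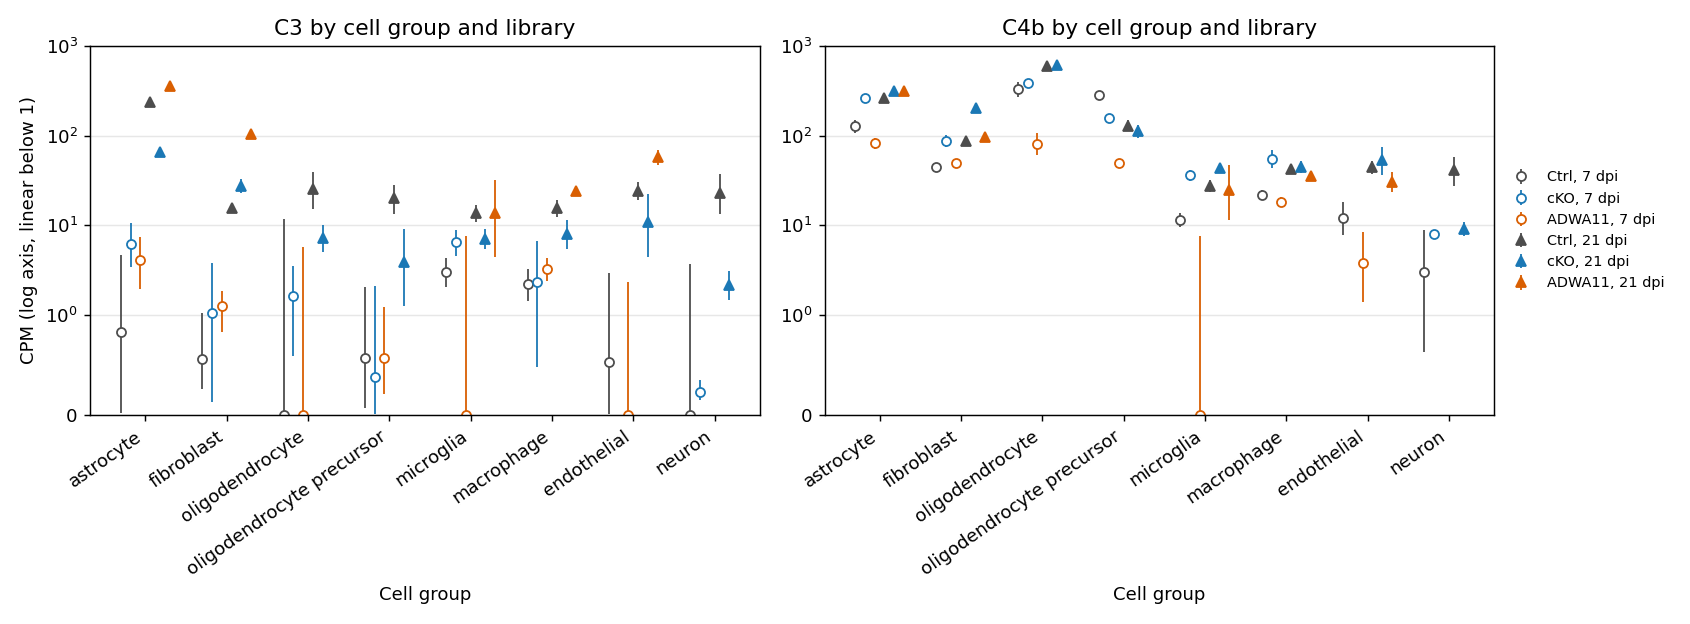
C3 and C4b in CPM (y axis, log scale) in cell groups (x axis) of each library, with 95% Poisson intervals as bars. Colour gives the condition, and marker shape and fill give the day. Astrocyte C3 is at 240, 359 and 65.5 CPM in Ctrl, ADWA11 and cKO at 21 dpi and at no more than 6.28 CPM at 7 dpi; C4b is measured in each of these groups at both days.

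Fibroblast C3 followed another order. It was at 0.561, 1.27 and 1.05 CPM in Ctrl, ADWA11 and cKO at 7 dpi, from 9, 27 and 2 UMIs. At 21 dpi it was at 15.8, 105 and 27.8 CPM. The ADWA11 library stood far above the others, with a log2 ratio to Ctrl of 2.73 (2.58 to 2.88), and its mice were at 77.1 and 112 CPM against 13.7 and 14.9 CPM in the Ctrl mice. In Ctrl at 21 dpi, 15.8 CPM over all fibroblasts was below the level of classes that should make little C3 in the same library, 25.8 CPM in T cells and 25.2 CPM in oligodendrocytes, so over the whole group it is not above background, although its sub-cluster 2 was. In ADWA11 the T cells were at 31.0 CPM and in cKO at 4.24 CPM, below the fibroblasts. A C3 UMI was present in 12.8% of ADWA11 fibroblasts and 5.49% of ADWA11 T cells at 2000 UMIs per nucleus, against 3.05% and 3.52% in Ctrl. The cKO value is less even: 5 of 479 nuclei held 43.1% of its 130 UMIs. Among fibroblast sub-clusters, C3 in sub-cluster 2 was at 55.8 CPM in Ctrl and 216 CPM in ADWA11 at 21 dpi, and in sub-cluster 0 at 16.8 and 110 CPM. Of all C3 UMIs, astrocytes held 56.1% in Ctrl, 18.7% in ADWA11 and 54.8% in cKO at 21 dpi, and fibroblasts 14.5%, 44.9% and 14.7%.

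**Figure D4:**
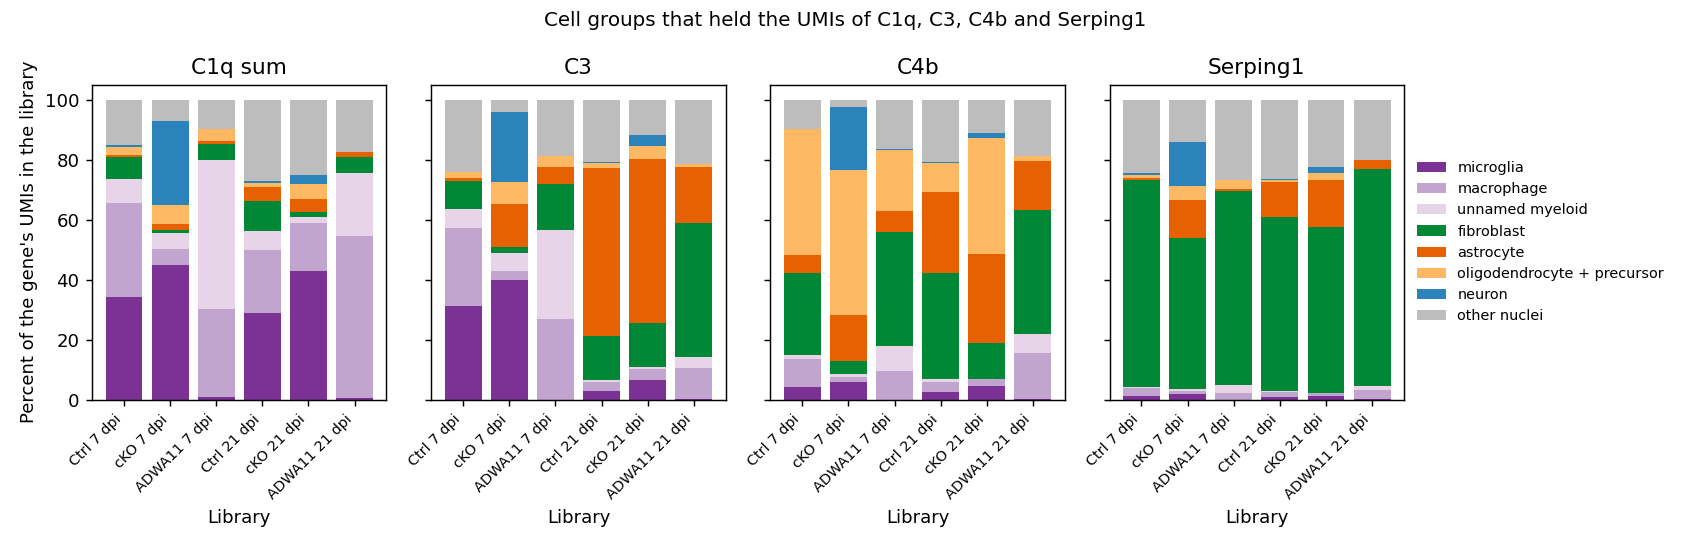
Percentage of the UMIs of the C1q chains together, C3, C4b and Serping1 (panels, y axis) that each cell group held in each library (x axis). At 21 dpi astrocytes hold 56.1% and 54.8% of C3 UMIs in Ctrl and cKO, and fibroblasts 44.9% in ADWA11; myeloid nuclei hold 55.6% to 80.0% of C1q UMIs.

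The receptors were genes of myeloid nuclei, which held 83.7% of C3ar1 and 81.4% of C5ar1 UMIs. C3ar1 was detected in 45.1% of macrophages and 39.1% of microglia against 4.45% of fibroblasts, and at 2000 UMIs per nucleus in 23.7%, 20.8% and 1.31%; C5ar1 was detected in 14%, 9.51% and 0.789%. In macrophages C3ar1 was between 126 and 186 CPM in all 6 libraries. C5ar1 varied more: over all myeloid nuclei it was at 22.8, 50.7 and 32.0 CPM in Ctrl, ADWA11 and cKO at 7 dpi, and then 34.0, 38.7 and 23.9 CPM at 21 dpi. The ADWA11 library at 7 dpi was the highest of the 6, with a ratio to Ctrl of 1.15 (1.02 to 1.29), the single member of 9 past 2-fold there (background 12%). Both its mice, at 47.4 and 56.4 CPM, were above the Ctrl mice, at 23.8 and 23.2 CPM. Named macrophages alone gave the same ratio within its interval, 1.13 (0.92 to 1.34), 1 of 8 members (background 9.80%). These macrophages lay in different sub-clusters: sub-cluster 3 held 27.9% of myeloid nuclei in Ctrl and 2.19% in ADWA11, and sub-cluster 1 held 6.10% and 20.6%. C5ar1 was at 21.4 CPM in sub-cluster 3 and 37.1 CPM in sub-cluster 1 over all libraries. Within sub-cluster 1 it was at 22.5 CPM in Ctrl and 46.4 CPM in ADWA11 at 7 dpi, and within sub-cluster 3 at 16.6 and 31.0 CPM, the last from 18 UMIs. At 21 dpi the ADWA11 ratio was 0.19 (0.03 to 0.34) in all myeloid nuclei, where none of 9 members was past 2-fold (background 15.0%), and -0.04 (-0.25 to 0.17) in macrophages, where none of 9 was either (background 13.5%). Thus C5ar1 was past 2-fold over the whole ADWA11 library at 21 dpi but not within its myeloid nuclei, which made up 46.0% of nuclei there and 23.2% in Ctrl. In the ADWA11 library at 7 dpi, 44.7% of myeloid nuclei were in sub-cluster 2, which held few nuclei of any other library.

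Serping1, which inactivates C1r and C1s, was a fibroblast and mural gene. Fibroblasts held 64.3% of its UMIs, and 43.3% of fibroblasts had a UMI of it against 1.45% of microglia (18.6% and 0.632% at 2000 UMIs per nucleus). In fibroblasts it was at 48.9, 67.5 and 83.2 CPM in Ctrl, ADWA11 and cKO at 7 dpi, and then 105, 199 and 260 CPM at 21 dpi. Both conditions were above Ctrl at each day, by 0.46 (0.34 to 0.59) and 0.77 (0.51 to 1.01) at 7 dpi and by 0.92 (0.85 to 0.99) and 1.31 (1.22 to 1.41) at 21 dpi for ADWA11 and cKO. The cKO ratio at 21 dpi was 0.84 with the unnamed cluster led by Trpm3 counted with the fibroblasts. At 21 dpi the ADWA11 mice were at 166 and 214 CPM and the cKO mice at 229 and 245 CPM, all above the Ctrl mice at 103 and 107 CPM. Over all libraries Serping1 was at 159 CPM in fibroblast sub-cluster 0 and 73.6 CPM in sub-cluster 4, whose shares differed between ADWA11 and Ctrl at 21 dpi as given for C1s1. Within sub-cluster 0 it was at 203 CPM in ADWA11 and 114 CPM in Ctrl. In astrocytes Serping1 was at 6.67, 7.76 and 17.9 CPM at 7 dpi and 83.8, 66.7 and 46.6 CPM at 21 dpi, so that cKO was highest at 7 dpi and lowest at 21 dpi. The values at 7 dpi rest on 8, 19 and 40 UMIs. Fibroblast markers in astrocyte nuclei at 21 dpi were lower in cKO, as given for C1s1, and their part was not tested. Over whole libraries Serping1 was lower in cKO at both days (-2.98, -3.16 to -2.80, and -0.82, -0.90 to -0.75), opposite to the direction in fibroblasts.

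**Figure D5:**
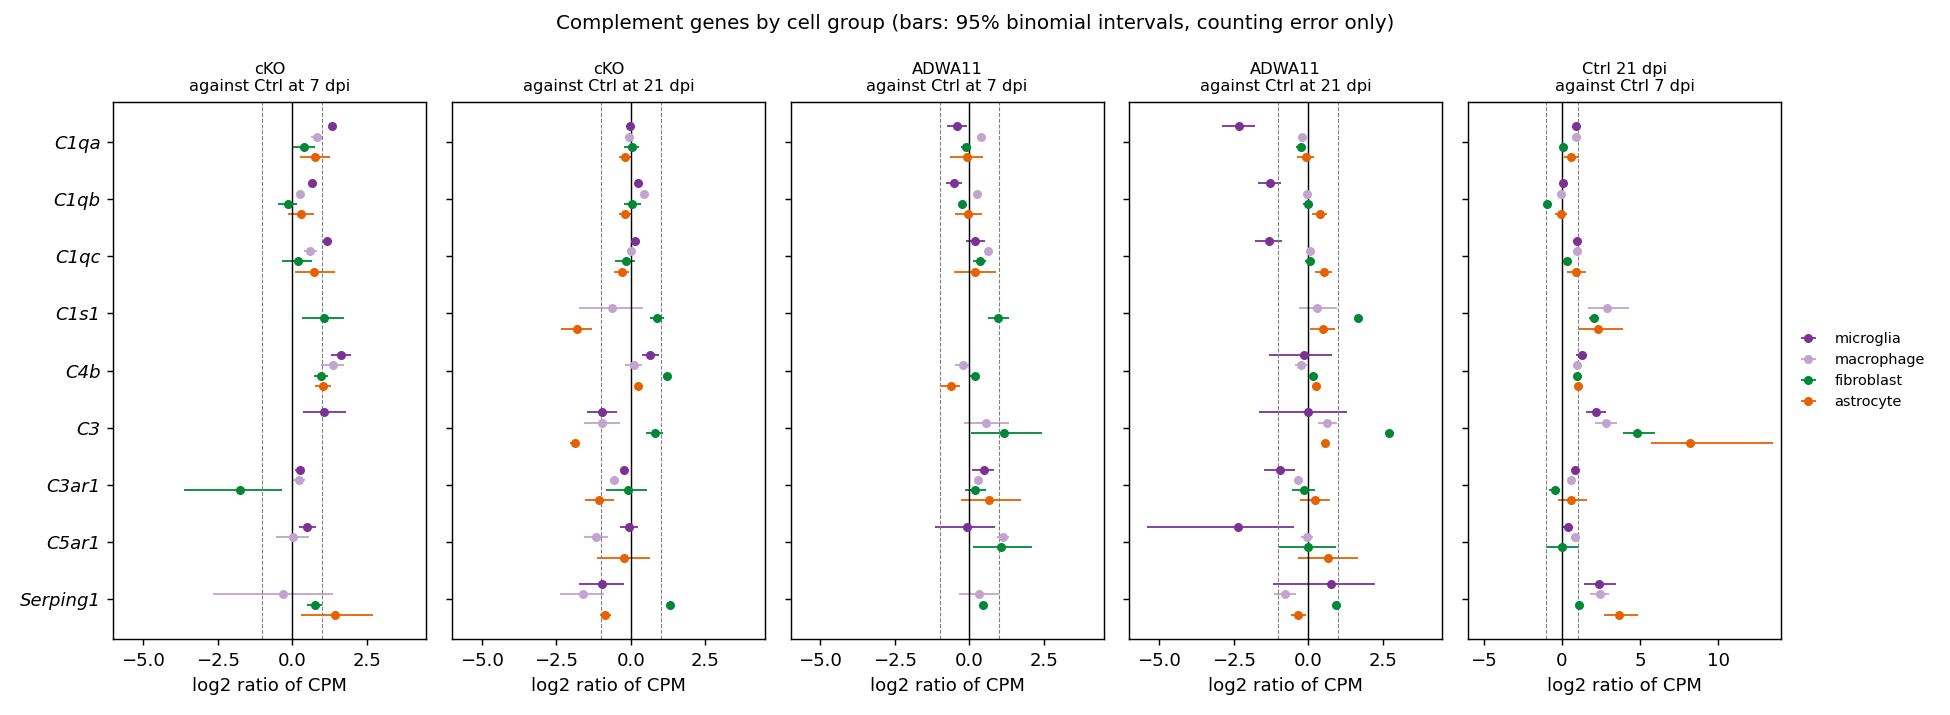
log2 ratios (x axis) of the 9 complement genes (rows) in microglia, macrophages, fibroblasts and astrocytes (colours), 1 panel for each of 5 comparisons, with 95% counting intervals as bars and dashed lines at 2-fold. Fibroblast C3 is at 2.73 for ADWA11 against Ctrl at 21 dpi, astrocyte C3 at -1.87 for cKO against Ctrl at 21 dpi and at 8.17 for Ctrl at 21 against 7 dpi.

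Counted by comparison, fibroblasts had C1s1 higher and C3ar1 lower in cKO at 7 dpi (2 of 7 members past 2-fold, background 12%). There C3ar1 rests on 4 UMIs in cKO, and C1s1 was at -0.20 in female nuclei. C3ar1, at 6.98 and 2.09 CPM, was below the oligodendrocytes of these libraries, at 9.51 and 14.8 CPM. At 21 dpi fibroblasts had C4b and Serping1 higher in cKO (2 of 8, background 17.0%). The C4b ratio was 0.95 in male nuclei, and the Serping1 ratio 0.84 with the unnamed cluster led by Trpm3 added. In ADWA11 at 7 dpi, fibroblasts had C3 and C5ar1 higher, from 27 and 36 UMIs (2 of 9, background 8.64%), and C5ar1 turned to -0.46 by the mean over nuclei. C5ar1 was at 1.69 CPM in these 2110 fibroblasts, whereas 1014 oligodendrocyte precursors of that library held 70 UMIs. C3, at 1.27 CPM, was below the 1.91 CPM of the whole library. Fibroblasts also had C3 and C1s1 higher in ADWA11 at 21 dpi (2 of 9, background 6.79%), and C3, C1s1 and Serping1 higher at 21 than at 7 dpi in Ctrl (3 of 9, background 19.4%). Astrocytes had C4b and Serping1 higher in cKO at 7 dpi (2 of 5, background 17.3%), C3, C1s1 and C3ar1 lower in cKO at 21 dpi (3 of 9, background 9.80%), none past 2-fold in ADWA11 at 7 dpi (of 5, background 6.45%) or 21 dpi (of 9, background 5.26%), and C3, C1s1, C4b and Serping1 higher at 21 dpi in Ctrl (4 of 8, background 19.6%). In the 154 Ctrl astrocytes at 7 dpi C1s1 rests on 5 UMIs and Serping1 on 8. The Ctrl time ratio of C1s1 in astrocytes, 2.28, was 0.99 in female nuclei. The Serping1 ratio of cKO astrocytes at 7 dpi was 0.82 in female nuclei. The part of the fibroblast markers in astrocyte nuclei at 21 dpi, given for C1s1, was not tested. Astrocyte C3ar1 at 21 dpi, 15.1 CPM in Ctrl and 7.29 CPM in cKO, was no higher than in oligodendrocytes of these libraries, at 22.7 and 13.1 CPM. All myeloid nuclei had C1qa, C1qc, C3 and C4b higher in cKO at 7 dpi (4 of 8, background 15.4%). There sub-cluster 0, the microglia, held 73.9% of them against 38.9% in Ctrl, and sub-cluster 3 held 10.6% against 27.9%. Over all libraries the C1q sum was 1054 CPM in sub-cluster 0 and 732 CPM in sub-cluster 3. All myeloid nuclei also had C1s1 and Serping1 lower in cKO at 21 dpi (2 of 9, background 10.5%). In the Ctrl library at 21 dpi they had C1qc, C1s1, C3, C4b and Serping1 higher than at 7 dpi (5 of 9, background 12.8%). Of these 5, C1s1 at 3.86 CPM, C3 at 14.4 CPM and Serping1 at 10.1 CPM were below the T cells of the same library (11.4, 25.8 and 19.1 CPM). That order is by point value, with 358 T cells. C4b at 34.4 CPM was within the T cell interval (22.5 to 45.3 CPM), and its ratio was 0.79 in female nuclei. The C1qc ratio fell short of 2-fold with TMM scaling (0.91), in female nuclei (0.94) and in male nuclei (0.92). Less the oligodendrocyte level it was 0.83. In that last comparison the members' median log2 ratio was 1.02, the ratio of C1qc itself, against 0.08 for all genes. In ADWA11 fibroblasts at 21 dpi the members' median was 0.06 against 0.02.

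Of the 47 other complement genes, those past 2-fold in fibroblasts were mostly higher: 11 higher and 3 lower of 25 in cKO at 7 dpi, 9 and 2 of 31 in cKO at 21 dpi, 6 and 2 of 31 in ADWA11 at 7 dpi, 5 and 1 of 32 in ADWA11 at 21 dpi, and 8 and 2 of 32 at 21 against 7 dpi in Ctrl. Of all genes, 12%, 17.0%, 8.64%, 6.79% and 19.4% were past 2-fold in either direction in these comparisons. The median log2 ratio of the other complement genes was 0.56, 0.39, 0.15, 0.46 and 0.25, against 0.08, -0.01, 0.08, 0.02 and 0.07 for all genes. The part of library composition in these counts was not tested. C2, the partner of C4 in the classical convertase, was at 44.5 CPM in cKO against 20.7 CPM in Ctrl fibroblasts at 7 dpi. Macrophages of the ADWA11 libraries had more Cfp, which encodes properdin, a stabiliser of the alternative convertase, at 112 against 26.6 CPM at 7 dpi and 136 against 48.8 CPM at 21 dpi. In astrocytes Clu, which encodes clusterin, an inhibitor of the terminal complex, was at 194 CPM in Ctrl at 21 dpi, with a log2 ratio of 2.70 to Ctrl at 7 dpi. In microglia Itgax, the α chain of complement receptor 4, was at 24.6 CPM in Ctrl at 7 dpi and 73.4 CPM at 21 dpi. Over all 47, 10 of 21 genes were past 2-fold in astrocytes of the Ctrl time comparison (8 higher; 19.6% of all genes) and 5 of 28 in cKO astrocytes at 21 dpi (3 higher; 9.80% of all genes).

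Across 53 sums of a named cell group in a library, the genes whose log2(CPM + 10) was most like that of the C1q chains among 16151 genes were Trem2 and Ctss (Pearson r = 0.95), Apoe (0.94), Cd68 and Tyrobp (0.93), which are myeloid or lipid transport genes. The nearest to C3 were Lcn2 (0.82), a marker of reactive astrocytes, then Naaa and Chil1 (0.76), Prelp (0.75) and Ecrg4 (0.74), and the nearest to C4b were Megf10 and Plekhb1 (0.83), Ddr1 (0.82), Cmtm5 and Adamtsl3 (0.81). The points share libraries, depth and free RNA, and these values only describe which patterns lie close.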

How the data were processed

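The authors aligned reads of 3' single-nucleus libraries (10x Genomics) to mm10 and deposited raw counts, as whole UMI counts per feature and barcode, with no normalization; the file headers and the study's methods name Cell Ranger 7.2.0, and the submitters' processing notes 7.1.0. Each library came from DAPI-sorted nuclei of 2 mice. From these counts, barcodes in the bottom or top 2.5% of UMIs or genes of their library, or the top 2.5% of mitochondrial share, were left out, giving 61917 nuclei. Of these, those a doublet caller (Scanpy 1.11.5, 0.8% per 1000 barcodes) marked were kept, and a fibroblast sub-cluster of 668 nuclei with over 50% of them marked was left unnamed. SCTransform (sctransform 0.4.2, Seurat 5.3.0, R 4.3.3) used 3000 variable genes without complement genes, 30 components and resolutions of 0.5, and of 0.25 and 0.2 within myeloid nuclei and fibroblasts. A cluster was named from at least 3 markers detected in 5% of its nuclei at 2-fold, and clusters of few UMIs stayed unnamed. The rules that separate microglia from macrophages, by Sall1, were set after the clusters were seen, and the group of all myeloid nuclei was added then. A gene's level was its UMIs scaled to 1000000 non-mitochondrial UMIs summed over a group (CPM), with an exact Poisson interval. Ratios have exact conditional binomial intervals and were counted as past 2-fold with at least 30 UMIs over both libraries. Intervals on 0 UMIs use a floor of 3 counts. Shares of nuclei were also computed after thinning nuclei to 2000 UMIs, which left out shallower nuclei. No test was run, because each group was 1 library. The code was tested on simulated data. Named were all 9 members, at most 5 other complement genes per cell group by UMIs among those past 2-fold (1 of these is not reported here), and the 5 genes most like the C1q sum, C3 and C4b. Members and lists were chosen with earlier results of these data known. Coordinates are GENCODE's (GRCm38), matching 32235 of 32285 features. Other tools were Python 3.11.15, SciPy 1.17.1 and, for alternative scaling, edgeR 4.0.16 (TMM).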

Additional observations from a re-analysis of the deposited data

Results flagged for a closer look

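Each of the following had cKO differ from Ctrl in opposite directions at the 2 time points, each library and its control apart by more than its counting interval; the difference between time points was not tested, and each time point is 1 pair of libraries. Over whole libraries, the log2 ratio of cKO to Ctrl for C1qb was -1.61 at 7 dpi and 0.46 at 21 dpi. Within all myeloid nuclei C1qb was higher in cKO at both days. It was at 498 against 326 CPM at 7 dpi and 446 against 341 CPM at 21 dpi. Neurons made up 55.8% of nuclei of the cKO library at 7 dpi, and their part in the library ratio was not tested. In astrocytes the ratio of cKO to Ctrl for Serping1 was 1.43 at 7 dpi, from 40 and 8 UMIs, and -0.85 at 21 dpi, from 345 and 600 UMIs. At 7 dpi it was 0.82 in female nuclei, and 5 nuclei held 32.5% of the 40 UMIs of cKO. Fibroblasts held 64.3% of Serping1 UMIs over all libraries. Fibroblast markers in astrocyte nuclei at 21 dpi were lower in cKO, as given for C1s1, and their part was not tested. In microglia the ratio of cKO to Ctrl for C3 was 1.08 at 7 dpi and -0.95 at 21 dpi, and over all myeloid nuclei 1.16 and -0.93. At 7 dpi 5 nuclei held 43.3% of the 30 C3 UMIs of Ctrl microglia and 30.8% of the 39 of cKO. At 21 dpi C3 in Ctrl was at 13.8 CPM in microglia and 14.4 CPM over all myeloid nuclei, below the 25.8 CPM of T cells in that library. Less the oligodendrocyte level, the ratios at 7 dpi were 0.66 in both groups.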

How the results depend on the processing

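No paired analysis was possible because each group was 1 library. Of 6 members past 2-fold in cKO at 7 dpi, all lower, the mean CPM over nuclei left 3, and leaving out neural classes gave 3, all higher. In cKO at 21 dpi the count of 2, both lower, was 1 with percentiles taken over pooled libraries, 1 in male nuclei, and 3, all higher, without neural classes. The 1 member in ADWA11 at 21 dpi, C5ar1 at 2-fold, was 0 with all deposited barcodes, pooled percentiles, the mean over nuclei or female nuclei. In microglia of ADWA11 at 21 dpi, signs turned: with complement genes among the variable genes the log2 ratios were 0.83 for C1qa, 1.13 for C1qb, 2.33 for C1qc and 5.60 for C5ar1, and with log-normalised clustering 0.31 for C1qc and 3.04 for C5ar1, while C5ar1 was 0.90 in female nuclei. C1s1 in cKO fibroblasts at 7 dpi was -0.20 in female nuclei, and C5ar1 in ADWA11 fibroblasts at 7 dpi was -0.46 by the mean over nuclei. Of 202 results, 50 were past 2-fold. Leaving out called doublets lost 3 of them, TMM scaling lost 4 and gained 3, and leaving out the 5 richest nuclei lost 1 and gained 18. Log-normalised clustering lost 8 and gained 9, complement genes among the variable genes lost 7 and gained 8, and the mean over nuclei lost 6 and gained 4. Of the 107 results that allowed it, subtracting the oligodendrocyte level moved 39, lost 5 of 28 calls and gained 2. Male nuclei lost 6 and gained 14, and female nuclei lost 13 and gained 21. Fibroblast C4b in cKO at 21 dpi was at 0.95 in male nuclei, and fibroblast Serping1 there was at 0.84 with the unnamed cluster led by Trpm3 added. That cluster, the doublet sub-cluster and the group of all myeloid nuclei were alternatives chosen after seeing the data. Groups under 100 nuclei limit the depth of ADWA11 microglia, ADWA11 oligodendrocytes and Ctrl oligodendrocytes at 7 dpi.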

Other observations

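Outside the 4 cell groups, the C1q level of T cells in the cKO library at 21 dpi was 2603 CPM, from 3072 UMIs in 303 nuclei, but 5 nuclei held 92.4% of these UMIs and 1 nucleus held 1031. Nuclei of an unnamed cluster with few UMIs, at a median of 1441 UMIs per nucleus, also carried C1q and C3. Its C3 level was 76.8, 204 and 66.5 CPM in Ctrl, ADWA11 and cKO at 21 dpi. Macrophage sub-cluster 7, led by Cd163, Cbr2 and Clec10a, had a C1q sum of 1203 CPM over all libraries beside its C4b of 146 CPM. Oligodendrocyte precursors held 38.1% of C4b UMIs in the Ctrl library at 7 dpi, at 283 CPM, and were at 129 CPM at 21 dpi.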
